A study of Cavia porcellus with 72 samples.

Results

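The genes described here are 10 genes of the brain endothelium and the blood-brain barrier: CLDN5, OCLN, CDH5, PECAM1, ABCB1, SLC2A1, MFSD2A, FLT1, KDR and EPAS1. They were chosen by symbol, and all 10 were found among the 11651, 11716 and 11663 genes listed for the 3 generations (F1, F2 and F3). RNA-seq was performed on the hippocampus of juvenile female Dunkin-Hartley guinea pigs at postnatal day 40. In the founder (F0) pregnancies the mothers received the synthetic glucocorticoid betamethasone (sGC) or saline vehicle (Veh). Later generations were bred through the male line by mating F1 and F2 males with non-experimental females. The pregnancies that gave the F2 and F3 animals were not treated. The groups held 6 Veh and 5 sGC animals in F1, 6 and 6 in F2, and 6 and 7 in F3, each animal from an independent mother. The questions were whether the level of these genes differed between sGC and Veh animals in each generation, and how the genes varied among themselves and between generations.

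Brain endothelial cells line the capillaries of the brain and are sealed to each other by tight junctions, carry few transport vesicles, and use selective transporters to bring in nutrients and to pump foreign compounds out. Wnt signals from the surrounding tissue keep this state, and pericytes and astrocyte endfeet wrap the vessel. Vascular endothelial growth factor (VEGF) and oxygen-sensing transcription factors also act on brain endothelial cells. Several of these genes are not particular to endothelium: SLC2A1 and EPAS1, for example, are also used by astrocytes.

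The libraries held 13507449 to 19767033 counted reads, and the lowest count of any member in any library was 118, so that all 10 passed the filter on low counts. Levels are given as counts per 1000000 reads (CPM) on a scale set over all 36 libraries. Markers of neurons, astrocytes and hippocampus were present in every library, and the 5 listed genes of the hippocampal set summed to between 1791 and 2606 CPM. Some libraries stood apart from the rest. F3 sGC replicate 5 was reproduced by a weighted sum of other F3 libraries to within less than counting noise: the chi-square per degree of freedom was 0.155, where counting noise alone gives 1 and the other 35 libraries gave 1.52 to 29.2. The weights fell on F3 sGC replicates 1, 2, 3, 4 and 7 (0.156, 0.103, 0.228, 0.251 and 0.249). It was the highest of its 13 libraries for 0.0704% of genes and the lowest for 0.0088%. It may therefore not be a separate animal. The fits over all libraries, the correlations and the plots count it as 1. The calls of F3 and of the mean over generations by edgeR's quasi-likelihood test are given without it as well. The value of 1.52 was that of F1 Veh replicate 6, with the next lowest at 3.04. F1 Veh replicate 6 was the highest of the 11 F1 libraries for 1.41% of genes and the lowest for 2.08%. F1 sGC replicate 4 was the highest of the 11 F1 libraries for 8 of the 10 members, and for 21.6% of all genes. It also had the highest summed astrocyte markers (15630 CPM, against 8306 to 12642 in the other F1 libraries) and the lowest summed neuronal markers (5529 CPM, against 6210 to 7473). F3 sGC replicate 6 had a chi-square per degree of freedom of 14.6, second to the 29.2 of F1 sGC replicate 4. It was the highest of the 13 F3 libraries for 4 of the 10 members and for 14.9% of all genes, with the highest astrocyte sum (11991 CPM) and the lowest neuronal sum (5723 CPM) of F3. The part of these cell markers in the results was not tested. The libraries whose label numbers run from 32 to 36 are all sGC, and the results were also computed without them. They include F3 sGC replicates 5 and 6 and F1 sGC replicate 4, but not F1 Veh replicate 6.

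EPAS1, which encodes the hypoxia-inducible transcription factor HIF-2α, was the only one of the 10 genes to pass the test of sGC against Veh. In F1 none of the 10 passed, against 2.08% of all genes tested, in F2 none passed, as for all genes (0%), and in F3 only EPAS1 passed, against 5.04% of genes. Without F3 sGC replicate 5 no member passed in F3, against 2.54% of genes. At an unadjusted p below 0.05 there were 4 members in F1 (EPAS1, ABCB1, SLC2A1 and FLT1), against 19.6% of genes, none in F2, against 6.64%, and 1 in F3, against 21.1%. By edgeR's likelihood ratio test and by DESeq2 the adjusted calls were EPAS1 in F1, none in F2 and EPAS1 in F3. Both tests counted F3 sGC replicate 5 and were not run without it. These tests called more of all genes: 5.26%, 0.0526% and 6.94% by the likelihood ratio test in F1, F2 and F3. By DESeq2 the shares were 5.78%, 0.0876% and 8.25%. The log2 fold change was above 0 for 8, 7 and 8 of the 10 members, where 48.3%, 49.7% and 51.7% of all genes were above 0. The median over the members was 0.14 in F1, beside −0.01 for all genes. It was 0.02 in both F2 and F3, beside 0.00 for all genes. These are descriptions of a list that was chosen with results known. In whole tissue, fewer endothelial cells and less RNA of a gene per cell cannot be told apart.

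**Figure D1:**
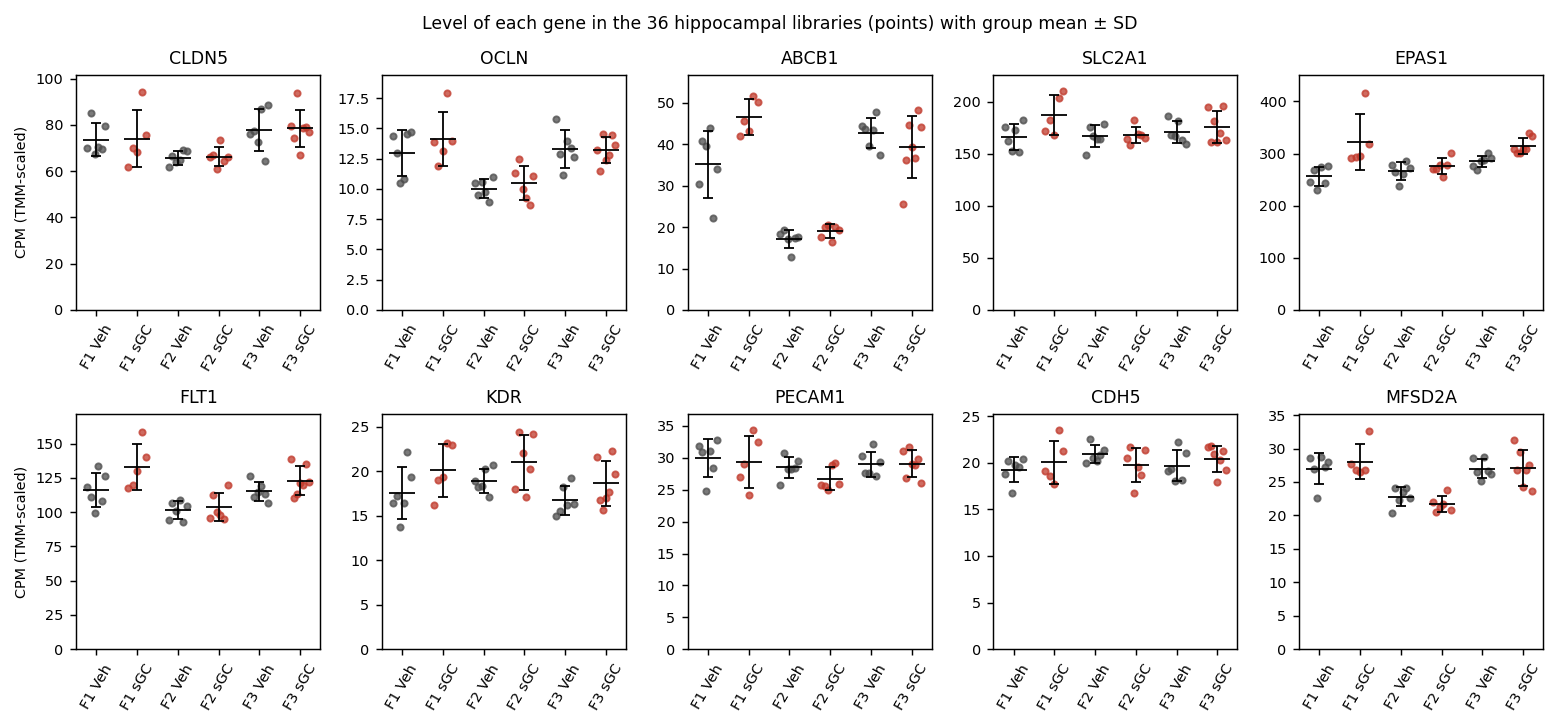
Level (CPM, linear axis from 0) of each of the 10 genes in every library, by generation and treatment. Grey points are Veh and red points sGC libraries, and the bars are the group mean ± SD. EPAS1 lies above every F1 Veh library in all 5 F1 sGC libraries, and ABCB1 lies lower in all 12 F2 libraries than in the other 24.

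CLDN5, the main claudin of the brain endothelial tight junction, ranged from 67.5 to 85.1 CPM in F1 Veh (median 70.2), and the 5 F1 sGC libraries had 61.7, 70.2, 68.4, 94.3 and 75.7 CPM. The groups overlapped, with the highest and the lowest of the 11 F1 values both in sGC animals, and the log2 fold change was 0.00 (95% interval −0.20 to 0.20). In F2, CLDN5 lay at 61.6 to 69.2 CPM in Veh (median 65.6) and 60.9 to 73.4 in sGC (median 66.0). In F3 it lay at 64.4 to 88.5 CPM in Veh (median 76.7) and 67.2 to 93.8 in sGC (median 78.5). Each pair of groups overlapped over almost their whole range. The intervals of the F2 and F3 changes, −0.08 to 0.10 and −0.15 to 0.17, leave out a change of more than about 0.2 in either direction.

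OCLN encodes occludin, a membrane-spanning protein of the tight-junction strand. It ranged from 10.5 to 14.7 CPM in F1 Veh (median 13.6) and from 11.9 to 17.9 in F1 sGC (median 13.9). In F2 it ranged from 8.88 to 11.0 CPM in Veh (median 10.1) and from 8.66 to 12.5 in sGC (median 10.6). In F3 it ranged from 11.2 to 15.8 CPM in Veh (median 13.1) and from 11.5 to 14.5 in sGC (median 13.2). The groups overlapped in each generation, and the log2 fold changes of 0.11 (SE 0.117), 0.06 (SE 0.0887) and −0.01 (SE 0.0780) were each smaller than their standard error. The highest OCLN value of the series, 17.9 CPM, was that of F1 sGC replicate 4.

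CDH5 encodes VE-cadherin, the adhesion protein of the endothelial adherens junction. Its medians were 19.7 CPM in Veh and 19.1 in sGC in F1, 20.6 and 19.98 in F2, and 19.2 and 20.9 in F3, and all 36 values lay between 16.7 and 23.5 CPM. PECAM1 (CD31), an adhesion molecule at endothelial cell borders that is also carried by platelets and leukocytes, had medians of 31.1 and 29.05 CPM in F1, 28.4 and 25.8 in F2, and 28.5 and 29.02 in F3. Neither gene separated sGC from Veh in any generation. Of the 3 generations, the change of PECAM1 was farthest from 0 in F2 (−0.10, 95% interval −0.21 to 0.02), as was that of CDH5 (−0.08, 95% interval −0.21 to 0.05).

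Among the transporters, ABCB1 showed the widest spread between animals. It encodes P-glycoprotein, the efflux pump of the luminal endothelial membrane, and was a gene of prior interest in the study. The F1 Veh libraries had 22.2 to 44.0 CPM (median 36.8), and the 5 F1 sGC libraries had 42.0, 45.7, 43.1, 51.7 and 50.3 CPM. All 5 sGC values lay above the Veh median and 3 above every Veh value, and F1 Veh replicate 5, the lowest of the Veh libraries, was at 22.2 CPM with the next at 30.3. The log2 fold change was 0.40 (SE 0.135, 95% interval 0.11 to 0.69), with an unadjusted p of 0.01064 and an adjusted p of 0.1278 in edgeR's quasi-likelihood test. When the 3 generations were fitted together, which pools the spread of all groups, the adjusted p of ABCB1 in F1 was 0.037. In that fit 7.48% of all genes passed in F1. In F2 the Veh libraries ranged from 12.8 to 19.2 CPM (median 17.5) and the sGC libraries from 16.3 to 20.6 (median 19.7). Of the 6 sGC values 4 lay above every Veh value, with a log2 fold change of 0.16 (SE 0.0861, adjusted p = 0.7641). Without F2 Veh replicate 4, the lowest at 12.8 CPM, the change was 0.08. In F3 the Veh libraries ranged from 37.4 to 47.9 CPM (median 43.6) and the sGC libraries from 25.5 to 48.4 (median 39.3). There the point estimate was on the other side of 0, at −0.12 (SE 0.106, adjusted p = 0.5656), and at −0.10 without F3 sGC replicate 5. It was −0.04 without F3 sGC replicate 1, the lowest at 25.5 CPM. ABCB1 has a close relative, ABCB4, which is not analysed here. How reads that match both were counted is not given in the sources used here.

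SLC2A1 encodes GLUT1, which carries glucose across the endothelium. It ranged from 151 to 182 CPM in F1 Veh (median 168), and the 5 F1 sGC libraries had 171.5, 182, 168, 203 and 210 CPM, all above the Veh median and 3 above every Veh value. The 2 highest were the libraries numbered 35 and 32. The F1 log2 fold change was 0.16 (SE 0.0679, adjusted p = 0.2017), and without those 2 libraries it was 0.06. In F2 and F3 the groups overlapped throughout, with medians of 165.9 and 166.3 CPM in F2 and 168 and 170 in F3, and changes of 0.01 and 0.04.

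MFSD2A encodes a lipid transporter that brings docosahexaenoic acid into the brain and holds vesicle transport low. Its F1 levels were 22.6 to 28.7 CPM in Veh (median 27.6) and 27.6, 26.8, 26.4, 26.8 and 32.6 in sGC. Its F2 levels were 20.3 to 24.2 CPM in Veh (median 23.1) and 20.5 to 23.8 in sGC (median 21.5). Its F3 levels were 25.2 to 28.8 CPM in Veh (median 26.6) and 23.6 to 31.3 in sGC (median 26.8). The groups overlapped in every generation, and all 3 log2 fold changes lay between −0.08 and 0.05 with intervals that included 0.

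FLT1 (VEGFR1) binds VEGF tightly and in its soluble form acts as a decoy, and KDR (VEGFR2) carries most of the growth signal. The counts do not separate the soluble from the membrane form of FLT1. FLT1 ranged from 99.7 to 134 CPM in F1 Veh (median 115), and the F1 sGC libraries had 118, 120, 130, 159 and 140 CPM. All 5 were above the Veh median and 2, again the libraries numbered 35 and 32, above every Veh value. The log2 fold change was 0.19 (SE 0.0849, adjusted p = 0.2332) in F1, and 0.07 without these 2 libraries. It was 0.03 (SE 0.0594) in F2 and 0.09 (SE 0.0534) in F3.

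KDR ranged from 13.7 to 22.2 CPM in F1 Veh (median 16.9) and from 16.2 to 23.2 in F1 sGC (median 19.3). Its F2 values ran from 17.1 to 20.7 CPM in Veh (median 18.6) and from 17.1 to 24.4 in sGC (median 21.1). Its F3 values ran from 15.01 to 19.3 CPM in Veh (median 16.3) and from 15.7 to 22.3 in sGC (median 17.7). The groups overlapped, and the changes were 0.18 (SE 0.119), 0.15 (SE 0.0860) and 0.16 (SE 0.0858) in the 3 generations, none past the threshold before or after adjustment. Their mean was 0.16 (SE 0.05998, unadjusted p = 0.00924, adjusted p = 0.07913). This mean passed in 3 of the 36 fits that left out a library, with an adjusted p from 0.03691 to 0.1545 over the 36. Without the libraries numbered 32 to 36 the changes were 0.04, 0.10 and 0.11 and their mean 0.09, and without F1 Veh replicate 3 the F1 change was 0.12. FLT4 (VEGFR3), the third receptor of the family, had changes of 0.24, 0.03 and 0.26 in the same order, with adjusted p of 0.3926, 0.9665 and 0.2307.

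EPAS1 ranged from 230 to 275 CPM in F1 Veh (median 257). The F1 sGC libraries had 291, 292, 294, 417 and 318 CPM. All 5 lay above every Veh value, as did 2.77% of all genes, and replicate 4 stood far above the other 4. The log2 fold change was 0.32 (SE 0.0878, 95% interval 0.14 to 0.51), a ratio of 1.25, with an unadjusted p of 0.002422 and an adjusted p of 0.07126. Without F1 sGC replicate 4 the change was smaller, 0.22, but so was the spread, and the adjusted p was 0.04471. Without both F1 libraries numbered above 31 it was 0.19 with an adjusted p of 0.1175.

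In F2, EPAS1 ranged from 238 to 286 CPM in Veh (median 269) and from 256 to 301 in sGC (median 274). These groups overlapped, and the log2 fold change was 0.05 (SE 0.0451, adjusted p = 0.8411). In F3 it ranged from 269.2 to 301.2 CPM in Veh (median 286) and from 300.9 to 339 in sGC (median 309). All 7 F3 sGC values were above the Veh median and 5 above every Veh value. When the scale was set within F3 alone, all 7 were above every Veh value (297 to 334 against 265 to 295), as 0.836% of all genes were. EPAS1 rose in F3 by 0.14 on the log2 scale (SE 0.0366, 95% interval 0.06 to 0.22), a ratio of 1.10, with an adjusted p of 0.03517. Without F3 sGC replicate 5 the change was 0.15 (SE 0.0398), the adjusted p was 0.06221, and the call was lost. The call was lost as well when any of F3 Veh replicates 1, 2, 3 and 4 or F3 sGC replicates 1 and 7 was left out. It was lost too with all generations fitted together (adjusted p = 0.1668) and without the libraries numbered 32 to 36 (0.1014). Over the 13 fits that left out 1 library the change ran from 0.12 to 0.16 and the adjusted p from 0.03124 to 0.08115.

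**Figure D2:**
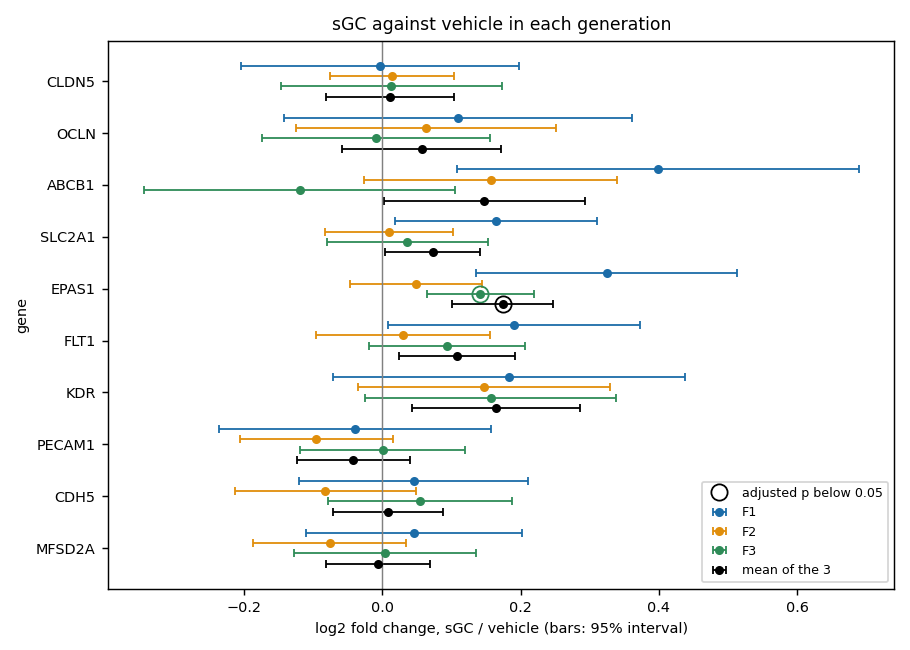
Log2 fold change of sGC against Veh (horizontal axis) for each gene in F1, F2, F3 and as the mean of the 3, with 95% intervals. Open circles mark an adjusted p below 0.05, which only EPAS1 reached, in F3 and in the mean, where the values are 0.14 and 0.17. The F3 value no longer passed without F3 sGC replicate 5.

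Averaged over the 3 generations, EPAS1 rose by 0.17 on the log2 scale (SE 0.0360, adjusted p = 0.004592) and was the only member to pass, against 8.53% of all genes. The mean was 0.17 (adjusted p = 0.007605) without F3 sGC replicate 5, where 7.3% of genes passed. In each of the 36 fits that left out a library EPAS1 passed, with 0.14 as the lowest change. Without all the libraries numbered 32 to 36 the mean was 0.11 with an adjusted p of 0.05184, and no member passed. At an unadjusted p below 0.05, 5 members differed in the mean (EPAS1, KDR, FLT1, SLC2A1 and ABCB1), against 24.6% of all genes. The other 5, which include all 4 junction and adhesion genes, had mean changes between −0.04 and 0.06. All 9 astrocyte genes were also above 0 in the mean, with a median of 0.18, and 6 of them rose (5 without F3 sGC replicate 5). Their part in the EPAS1 result was not tested.

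Whether the sGC effect itself differed between generations was tested across all genes, and no member passed in edgeR's quasi-likelihood test (0% of all genes passed). No member passed by the likelihood ratio test or DESeq2 either, where 1.21% and 1.46% of all genes passed. The members with the smallest p were EPAS1 (unadjusted p = 0.01059, adjusted p = 0.2017) and ABCB1 (0.01239 and 0.2082), the only 2 members with an unadjusted p below 0.05, against 15.6% of genes. The effect on ABCB1 in F3 was lower than in F1 by a log2 difference of −0.53 (SE 0.167, adjusted p = 0.1877), and that on EPAS1 in F2 was lower than in F1 by −0.28 (SE 0.0898, adjusted p = 0.1016). The EPAS1 difference was −0.18 without F1 sGC replicate 4 and −0.16 without the libraries numbered 32 to 36. Without F3 sGC replicate 5 the ABCB1 difference was −0.51 (adjusted p = 0.2806). The comparisons of generations share their libraries with those above.

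The Veh animals were then compared between generations, with 6 libraries in each. Of the 10 members 5 differed, ABCB1, OCLN, MFSD2A, CLDN5 and FLT1, against 42.4% of all genes. All 5 were lowest in F2. ABCB1 was much lower in F2 than in F1, by −1.04 on the log2 scale (SE 0.128, adjusted p = 1.293e-08), and higher in F3 than in F2 by 1.33 (SE 0.127, adjusted p = 2.706e-11). Against F1, 4 members were lower in F2, where 22.4% of all genes were lower: the others were OCLN (−0.37, adjusted p = 0.00234), MFSD2A (−0.24, adjusted p = 0.002132) and FLT1 (−0.19, adjusted p = 0.02656). From F2 to F3 all 5 were higher, as were 19% of genes, OCLN by 0.41, MFSD2A and CLDN5 by 0.24 and FLT1 by 0.18. F3 and F1 Veh animals differed in no member, and in 0.0176% of all genes. SLC2A1, EPAS1, KDR, PECAM1 and CDH5 did not pass in any of these pairs.

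**Figure D3:**
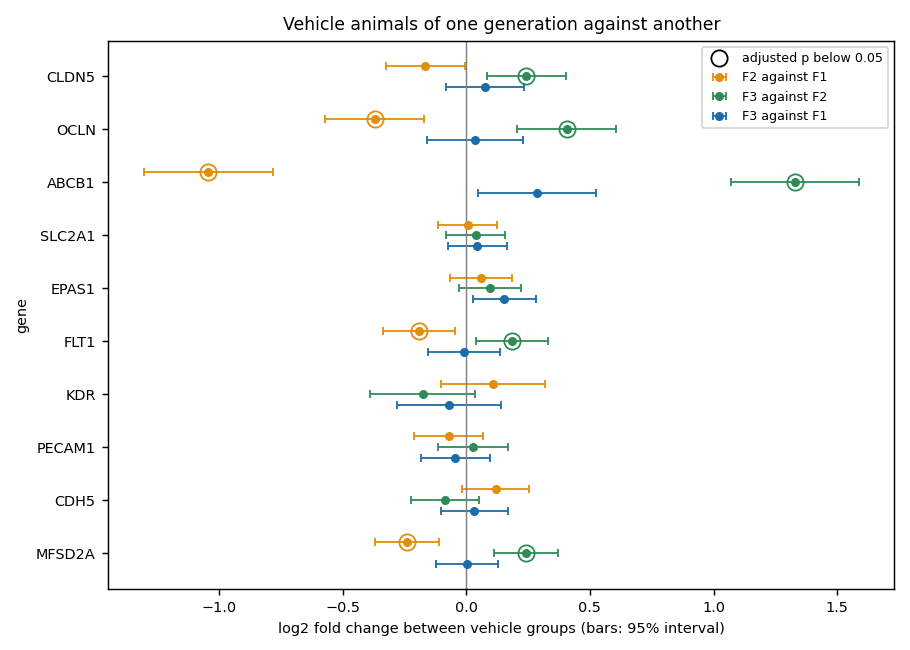
Log2 fold change between the Veh groups of each pair of generations (horizontal axis), with 95% intervals. ABCB1 is at −1.04 for F2 against F1 and at 1.33 for F3 against F2, and open circles mark an adjusted p below 0.05.

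The ABCB1 difference held for both treatments. All 12 F2 libraries, Veh and sGC, lay between 12.8 and 20.6 CPM, and the 24 F1 and F3 libraries between 22.2 and 51.7. No other member separated F2 in this way, whereas 6% of all genes were lower in every F2 library and 3.38% were higher. The log2 fold changes of single genes between F2 and F1 Veh animals reached −10.3 and 8.61. Generation cannot be told apart from when and how each generation's libraries were made and counted. CLDN5 and FLT1 no longer passed without F2 Veh replicate 1, F2 Veh replicate 3 or F3 Veh replicate 4, and 1 of the 2 was lost without F1 Veh replicates 1, 4 or 6, F2 Veh replicates 2, 4 or 5, or F3 Veh replicates 1 or 6. ABCB1, OCLN and MFSD2A passed in all 36 fits that left out a library. EPAS1 passed as a sixth member without F1 sGC replicate 4, and 5 passed without F3 sGC replicate 5.

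Between animals of the same group, ABCB1 varied most of the 10 genes. Its SD within groups was 0.235 on the log2 scale, larger than that of 98.4% of the 500 genes nearest to it in mean level. Next came KDR with an SD of 0.189 (larger than 87.8% of genes of its level) and OCLN with 0.174 (73.3%). The SD was 0.144 for CLDN5 (larger than 94.8% of such genes) and 0.131 for FLT1 (larger than 91.8%). CDH5, at 0.117, was near the middle of genes of its level (53.1%), and EPAS1 had an SD of 0.111. The median over all genes was 0.107. Over the 36 libraries, with each library's log2 level taken as its difference from its group mean, Pearson's r was above 0 for 41 of the 45 pairs of members, with a median of 0.36, where it was above 0 for 49.8% of the pairs of all genes. Of the 45 pairs 15 passed a permutation test within groups (100000 permutations, adjusted over the 45), all with r above 0. By Spearman's rho 13 passed, not all of them among the 15. For a measure that needs no test, r was at least 0.5 in 11 of the 45 pairs (24.4%) and in 1.91% of the pairs of all genes. Without the libraries numbered 32 to 36 it was so in 8 pairs (17.8%) and in 1.41%. These shares are descriptions, since the members were chosen as genes of 1 cell type.

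**Figure D4:**
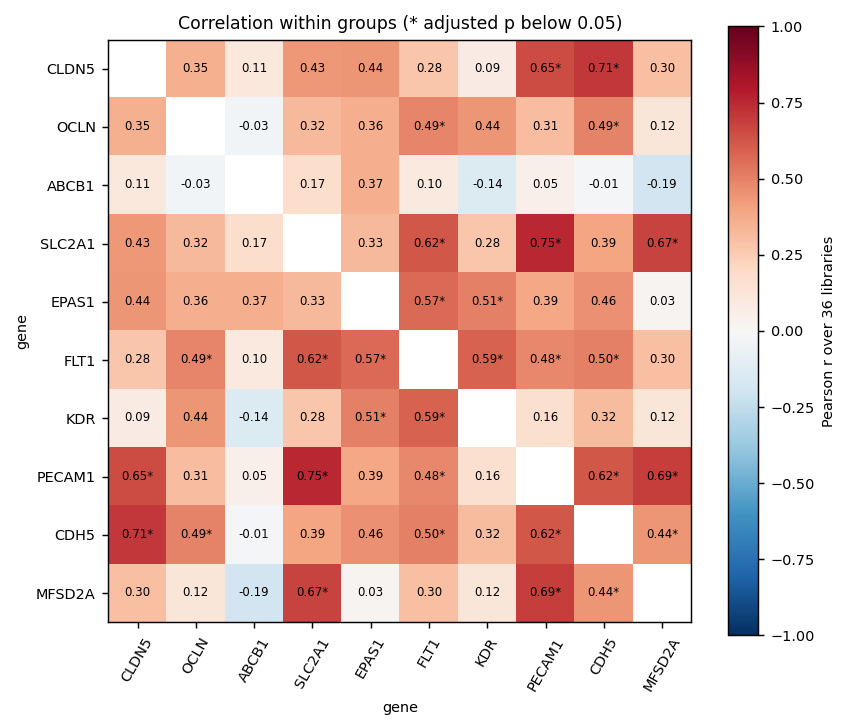
Pearson's r for each pair of the 10 genes over 36 libraries, from group-centred log2 CPM, on a colour scale from −1 (blue) to 1 (red), with * for an adjusted permutation p below 0.05. SLC2A1 with PECAM1 has the highest value, 0.75, and ABCB1 has no starred pair.

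The closest pair was SLC2A1 and PECAM1 (r = 0.754, rho = 0.771, r = 0.755 without the 2 farthest libraries, permutation p = 1e-05, the smallest the test can give, adjusted p = 0.000225). CLDN5 and CDH5, a tight-junction and an adherens-junction gene, had r = 0.706 (rho = 0.748, adjusted permutation p = 0.0003, r = 0.677 without the 2 farthest). MFSD2A went with PECAM1 (r = 0.692) and with SLC2A1 (r = 0.674), and the 2 VEGF receptors FLT1 and KDR with each other (r = 0.591, adjusted permutation p = 0.00681). By gene, FLT1 was in 6 of its 9 pairs past the threshold, PECAM1 and CDH5 in 5, SLC2A1 and MFSD2A in 3, and CLDN5, OCLN, EPAS1 and KDR in 2. By Pearson's r ABCB1 was in none, with r between −0.19 and 0.37. By Spearman's rho its pair with EPAS1 passed (rho = 0.474, adjusted permutation p = 0.0326), but not without the libraries numbered 32 to 36 (adjusted permutation p = 0.23). Without the libraries numbered 32 to 36, 8 pairs passed, all among the 15, and the median r over the 45 pairs was 0.164. Without F3 sGC replicate 5 the number was 14. Within single generations, r was above 0 for 42 pairs in F1 (median 0.574, 11 libraries), 24 in F2 (median 0.067, 12 libraries) and 28 in F3 (median 0.286, 13 libraries). The 15 pairs that passed over all libraries were above 0 in 15, 13 and 15 cases. They were picked by their r over these same libraries, so these signs are no separate test.

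For each member, the genes with the most similar levels over the 36 libraries were looked up among 9942 genes with a mean of at least 5 CPM, as a description with no test. The endothelial genes VWF (with SLC2A1, r = 0.697), PTPRB (with FLT1, r = 0.813) and CALCRL (with KDR, r = 0.732) came first or next after other members or CD180 (with FLT1, r = 0.823). PECAM1 was followed most closely by TCF7L2, a transcription factor of Wnt signaling (r = 0.806), then SLC2A1, and MFSD2A by PECAM1, then SLC2A1. CDH5 was followed by HADHB (r = 0.749) and by OGN (r = 0.748), a matrix gene of fibroblasts, and KDR by CALCRL and COBLL1 (r = 0.73). For CLDN5 the nearest were NDUFB9 (r = 0.78) and EIF3K (r = 0.75), of the respiratory chain and of translation initiation. For OCLN they were RPS6KA1 (r = 0.734) and CUX1 (r = 0.699), for ABCB1 SELENBP1 (r = 0.639, but 0.291 without the 2 farthest libraries) and LAMA1 (r = 0.602), and for EPAS1 SZRD1 (r = 0.823) and ARHGEF26 (r = 0.812).

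The members were also set against the mean level of 7 sets of cell markers, in 70 relations of which 31 passed the permutation test. Levels of many genes went with these sets: r was 0.5 or beyond in either direction in 26 of the 70 relations of the members and in 9.73% of those of all genes, and in 8 of the 70 and 2.83% without the libraries numbered 32 to 36. The mean of 18 other endothelial genes (among them TEK, ESAM and VWF) went with 8 of the 10 members, all but ABCB1 and KDR, most closely with PECAM1 (r = 0.75, rho = 0.726, adjusted permutation p = 0.00122). Astrocyte genes went with 6 members, microglial genes with 5, pericyte genes with 4 and meningeal genes with 3. Neuronal markers went in the opposite direction in 5 members, and oligodendrocyte markers with none. At r of 0.5 or beyond, the endothelial set went with 8 members and with 9.09% of all genes outside the set. The astrocyte set went with 5 members and 13.4% of genes, and the microglial set with 3 and 11.7%. For pericyte genes these were 4 and 7.41%, and for meningeal genes 2 and 5.85%. For neuronal markers they were 4 and 15.3%, and for oligodendrocyte markers 0 and 5.42%. CDH5 went with 9 meningeal fibroblast genes (r = 0.749, rho = 0.68, adjusted permutation p = 0.0007, r = 0.68 without the 2 farthest), and with r = 0.804, 0.651 and 0.759 within F1, F2 and F3. EPAS1 went most closely with 9 astrocyte genes (r = 0.775, rho = 0.693, adjusted permutation p = 0.00245, r = 0.635 without the 2 farthest), with r = 0.941 in F1, 0.526 in F2 and 0.108 in F3. With the other endothelial genes its r was 0.625 over all libraries, and 0.845 in F1, 0.389 in F2 and −0.257 in F3. With neuronal markers it was −0.672. Without the libraries numbered 32 to 36, 3 of the 70 relations passed, and none with astrocyte, microglial, pericyte or neuronal genes. They were PECAM1 and MFSD2A with the other endothelial genes, and CDH5 with meningeal genes (r = 0.693, adjusted permutation p = 0.0133). EPAS1 with astrocyte genes then had r = 0.42 (adjusted permutation p = 0.2). Without F3 sGC replicate 5, 28 passed.

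**Figure D5:**
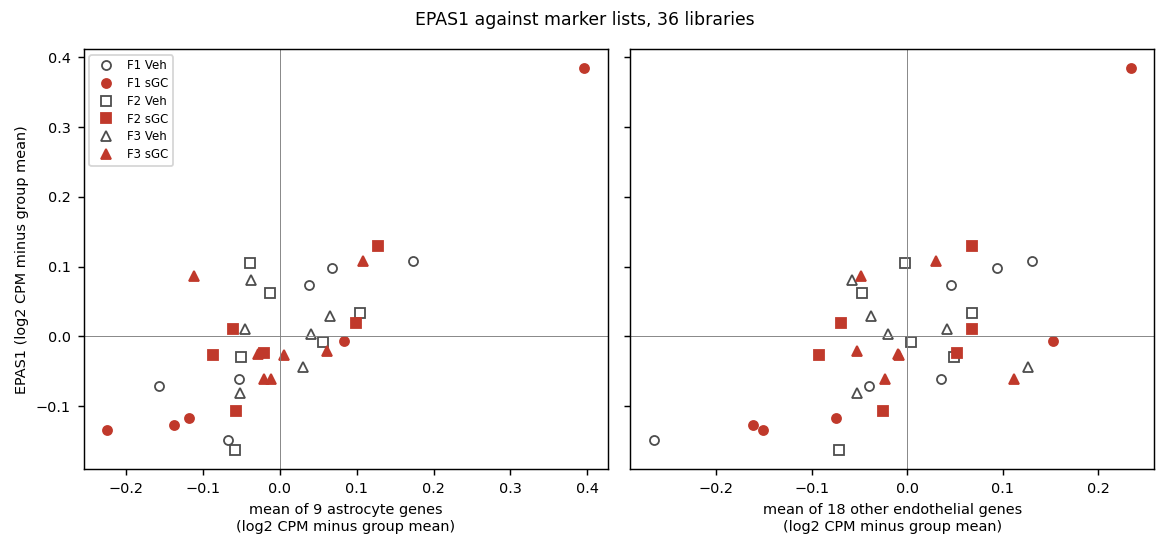
Level of EPAS1 in each of the 36 libraries (vertical axis, log2 CPM minus the group mean) against the mean of 9 astrocyte genes (left) and of 18 other endothelial genes (right). Open grey symbols are Veh and filled red symbols sGC, with circles for F1, squares for F2 and triangles for F3. The point at the top right of both panels is F1 sGC replicate 4, and r is 0.775 on the left and 0.625 on the right.

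The cell markers themselves moved with treatment in part of the series. The 9 astrocyte genes were all above 0 in the sGC comparison in F1 and F3, with medians of 0.24 and 0.18. None passed in F1, and 4 passed in F3 (2 without F3 sGC replicate 5). On a scale set within each generation their sum was 8306 to 10920 CPM in F1 Veh and 9512 to 15630 in F1 sGC, 10452 to 12082 and 10484 to 12600 in F2, and 9244 to 10218 and 10454 to 11991 in F3. In F3 the astrocyte sums of the groups did not overlap. In F2, 8 of the 9 genes were above 0 with a median of 0.02, 3 had an unadjusted p below 0.05 and none passed. Of 8 neuronal genes 4 were lower in F3, with and without replicate 5. The 18 other endothelial genes had median changes of 0.08, 0.01 and 0.03 in F1, F2 and F3 and none passed. Their sums overlapped in each generation, at 444 to 556 CPM in F1 Veh and 480 to 617 in F1 sGC, and at 490 to 542 and 505 to 582 in F3. Of 9 meningeal genes 8 were below 0 in F1 and 2 of these passed, with a median change of −0.84, and all 9 were above 0 in F3 with none passing. Choroid plexus genes, of which 5 of 8 were listed in F2, summed to a median of 46.4 CPM in F2 Veh and 48.0 in F2 sGC, but reached 709 in a single library. Red blood cell genes summed to at most 6.47 CPM in any library. The part of these cell types in the results for the 10 genes was not tested.

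Other genes of the barrier and its pathways, from lists set beside the 10 members, mostly did not differ between sGC and Veh. Of 18 other endothelial identity genes tested none passed in any generation, and the smallest p was that of EGFL7, a secreted endothelial protein (F1, −0.18, adjusted p = 0.06644). Of 9 or 10 other junction genes none passed, and the smallest p was that of TJP1, which encodes the scaffold ZO-1 (F1, 0.16, adjusted p = 0.1273). Among 15 or 16 other transporters and receptors, SLC6A6, the taurine transporter, rose in F1 by 0.25 (SE 0.0570, adjusted p = 0.03983), with no overlap between the groups. Of all genes 2.08% passed in F1, and 2.77% were higher without overlap on the scale of all 36 libraries. SLC6A6 passed in 3 of the 11 fits that left out a library. It was lost without any of the 6 Veh libraries or sGC replicates 2 or 5, where the adjusted p reached 0.08702. In F2 and F3 its changes were −0.03 and −0.04.

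Of 14 VEGF, angiopoietin and hypoxia genes none passed, and the smallest p was that of VEGFB in F3 (0.13, adjusted p = 0.1058). Of 13 genes of the Wnt and Norrin pathway that forms the barrier, LEF1, a transcription factor that acts with β-catenin, rose in F3 by 0.23 (SE 0.0510, adjusted p = 0.01529), with no overlap between the groups. Of all genes 5.04% passed in F3, and 0.836% were higher without overlap. LEF1 passed in the 13 fits that left out a library, with 0.03658 without F3 sGC replicate 5, and its changes in F1 and F2 were 0.13 and 0.06. The call was lost when the 3 generations were fitted together (adjusted p = 0.1299) and without the libraries numbered 32 to 36 (0.0638). Of 13 pericyte and smooth-muscle genes PDGFRB, the receptor that holds pericytes to the vessel, rose in F3 by 0.20 (SE 0.0527, adjusted p = 0.0395), and passed in 4 of 13 fits that left out a library. It was lost without Veh replicates 2, 3, 4 or 6 or sGC replicates 1, 2, 3, 5 or 6, with an adjusted p of 0.07337 without F3 sGC replicate 5 and at most 0.08002. The same changes of setting lost it too, with adjusted p of 0.1307 and 0.1073. In the mean over generations 5 of the 83 genes of these lists that were tested passed (6.02%, against 8.53% of all genes): TJP1, EGLN1, LRP5, WNT7B and ABCC9, with changes of 0.10, 0.09, 0.14, 0.19 and 0.20. Only TJP1 and ABCC9 passed without F3 sGC replicate 5 (adjusted p = 0.03105 and 0.04248), 2.41% against 7.3% of all genes. These 5 are named after their values were seen.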

How the data were processed

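The authors deposited raw counts of reads per gene and library (TruSeq V2 mRNA libraries, 51-base single reads), in a table for each generation. TopHat2 is named in the submitters' processing notes, and the counter, genome build and strand setting are not given in the sources used here. Groups came from the labels. Columns of the authors' own comparisons, and methylation tables holding only such comparisons, were not used.

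Counts were filtered (filterByExpr), scaled (TMM) and tested with edgeR 4.0.16 (R 4.3.3, quasi-likelihood test, Benjamini-Hochberg adjustment over all genes, threshold 0.05), within each generation (11377, 11414 and 11359 genes) and jointly (11390). Alternatives were the likelihood ratio test, DESeq2 1.42.0, RLE scaling, no filter, a replicate block, a joint fit and left-out libraries, and dropping F3 sGC replicate 5 from the correlations and the shares of all gene pairs at r of 0.5 were added after seeing the data. Correlations used log2 CPM with a prior count of 1. Steps were tested on simulated data. P-values of sGC against Veh and between generations set a difference against the spread between libraries of a group. Those that include F3 sGC replicate 5 count it as a separate animal. Named genes were the 10 members, the list genes past the threshold or, in lists with none, the gene of smallest p, and the 2 most similar genes per member. Members and lists were chosen with earlier results of these data known.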

Additional observations from a re-analysis of the deposited data

Results flagged for a closer look

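In 4 of the 60 groups of a gene, treatment and generation, a library lay far from the others of its group by Dixon's test, a rate near the 1 in 20 that chance gives. EPAS1 in F1 sGC replicate 4 was at 416.7 CPM, with the next at 318.0. MFSD2A in F1 sGC replicate 5 was at 32.6 CPM, with the next at 27.6. MFSD2A in F1 Veh replicate 3 was at 22.6 CPM, under the next at 26.9, and ABCB1 in F2 Veh replicate 4 was at 12.8 CPM, under the next at 17.01.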

How the results depend on the processing

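The count of members past the threshold in F1 was 0, and 1 (EPAS1) with the likelihood ratio test and with DESeq2, 2 (EPAS1 and ABCB1) with all generations fitted together, and 0 to 1 with a library left out. In F3 it was 1, and 0 with the replicate block, without libraries 32 to 36 and with all generations fitted together, and 0 to 1 with a library left out. For the mean effect it was 1, and 2 (EPAS1 and FLT1) with the replicate block, 0 without libraries 32 to 36, and 1 to 2 with a library left out, where the other was KDR. For Veh levels across generations it was 5, and 3 to 6 with a library left out. With the replicate block it was 1. The blocks lay within generations, so that fit compared 1 replicate number of each generation and not the Veh group means. It cannot show how the Veh differences depend on the block. The number of pairs of members was 15, and 8 without libraries 32 to 36. No change reversed a called direction. The labels do not say whether animals with the same replicate number were paired. Same-numbered libraries had a correlation above 0.1 in 3 of 17 pairs. This cannot settle it, since no differently numbered pairs were set beside them. With the block EPAS1, LEF1 and PDGFRB in F3 had adjusted p of 0.09828, 0.06216 and 0.05856. Genes called in F1 numbered 237, and 598 with the likelihood ratio test, 658 with DESeq2, 852 with all generations together and 97 without libraries 32 to 36. In F2 they numbered 0, with 758 at an unadjusted p below 0.05, 6 with the likelihood ratio test and 10 with DESeq2. In F3 they numbered 573, and 937 with DESeq2, 317 without libraries 32 to 36, 334 together and 288 without F3 sGC replicate 5, and the share of genes called was 5.04%, and 1.51% with the block. For the mean they numbered 971, and 54 without libraries 32 to 36. For a difference between generations they numbered 0, and 138 with the likelihood ratio test and 369 without libraries 32 to 36. For Veh levels they numbered 4830, and 1591 with the block, where the comparison is another one, as said above. The cause of the other differences was not tested.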
